A study of Arabidopsis thaliana with 18 samples.

Results

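The transcripts described here are those whose signal was lower after 60 min of a change of light quality, with a large share of that change already present at 30 min on average over both genotypes, in Arabidopsis rosettes with and without the kinase STN7. They were chosen on the group means of the log2 signals. A probe set (the group of array probes that reads 1 transcript) was taken when its 60 min minus 0 min change was at or below -0.8 in WT and in stn7, and when its 30 min change, averaged over both genotypes, was at least 0.5 of its 60 min change. Of the 22746 probe sets tested, 146 met this rule. Probe sets of the 15 genes on the rule's exclusion list (IAA29, AT5G12050, AT5G02580 and others) were left out, which removed 13 of the 146 and left 133 members. Of these, 110 met the 30 min condition in stn7 and in WT taken separately. The array annotation gave 1 gene to 63 members, which cover 62 genes, gave 2 candidate genes to 1 member and had no entry for 69. These last are called by their probe set names.

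The arrays measured poly(A)-primed RNA of rosette leaves of Arabidopsis thaliana aged 23 days, each sample a pool of at least 250 plants. The stn7 groups were the knockout line SALK_073254 in the Col-0 background, and the WT groups were Col-0. Both genotypes were raised at 22 °C and 60% humidity, for 20 days under continuous white light (35 µE) and for 3 more days under PSI light, which mainly excites photosystem I. Rosettes were taken at that point (0 min), or after 30 min or 60 min of PSII light, which mainly excites photosystem II, with 3 arrays in each of the 6 groups. No group remained in PSI light for 30 or 60 min, so an effect of the new light and one of harvest time cannot be told apart. The mutant is 1 insertion line, and the STN7 transcript itself is not analysed here.

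The 2 photosystems work in series, joined by the plastoquinone pool, and light that drives one more than the other changes the redox state of that pool. STN7 is a thylakoid kinase that is active when plastoquinone is reduced, phosphorylates antenna proteins of photosystem II, and so takes part in state transitions and in longer-term acclimation. Light enriched in far-red, as PSI light usually is, also acts on phytochrome, which controls auxin-related and shade genes, while plants short of photosynthate express low-energy genes such as those of autophagy and amino acid breakdown. Glutaredoxins of the plant-specific CC type are small redox proteins, several of which interact with TGA transcription factors.

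The array medians lay between 6.1 and 6.31, and correlations between arrays of 1 group between 0.9896 and 0.9967. Arrays of 1 group differed along a common axis (the leading component of the deviations from group means, with 28.0% of their variance), on which the mean scores were -2.93, -15.4 and 15.2 in stn7 and 32.9, -14.8 and -14.9 in WT at 0, 30 and 60 min. WT replicates 1 and 3 at 0 min lay farthest out on it. Of the marker genes measured, RCA, a mesophyll gene for Rubisco activase, had a mean log2 signal of 13.05, and the root gene PYK10 had 12.05, while the root hair genes EXPA7 and EXPA18 were at 4.12 and 3.96, near the floor of the values. None of these 4 passed the test at 30 or 60 min in either genotype, nor did the guard cell gene FAMA. The guard cell gene GC1 fell by 0.73 ± 0.17 in stn7 and changed by -0.02 ± 0.17 in WT at 30 min (SE, n = 3, limma adjusted p = 0.0153 in stn7 and 0.961 in WT), and at 60 min it did not pass in either (0.50 ± 0.17 in stn7, adjusted p = 0.0552, and 0.33 ± 0.17 in WT, adjusted p = 0.165). SWEET11, a sucrose transporter of the phloem parenchyma, changed by 0.05 ± 0.12 in stn7 and fell by 0.55 ± 0.12 in WT at 30 min (SE, n = 3, limma adjusted p = 0.876 in stn7 and 0.00309 in WT). At 60 min it changed by 0.16 ± 0.12 in stn7 and fell by 0.70 ± 0.12 in WT (SE, n = 3, limma adjusted p = 0.424 in stn7 and 0.000323 in WT). The part of GC1 and SWEET11 in the members' changes was not tested.

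The mean log2 signal of the 133 members in stn7 was 8.18 ± 0.11 before the shift, 7.20 ± 0.06 after 30 min and 6.93 ± 0.13 after 60 min (SD, n = 3). In WT it was 8.45 ± 0.15, 7.41 ± 0.17 and 7.06 ± 0.08. The rule selected for this drop and for a large share of it at 30 min, so no test is attached to its size or its timing. In bulk leaf RNA, fewer cells of a type and less RNA per cell cannot be told apart.

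**Figure D1:**
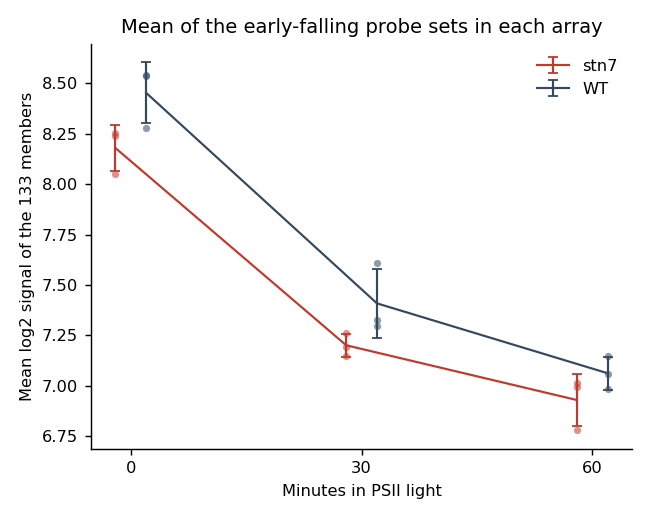
Mean log2 signal of the 133 members (vertical axis) against minutes in PSII light, with 1 point per array, stn7 in red and WT in dark blue; lines join group means and bars are SD (n = 3). The 3 stn7 arrays at 0 min lie between 8.05 and 8.25 and the 3 WT arrays between 8.28 and 8.54.

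The median member changed by -0.90 at 30 min and -1.11 at 60 min in stn7, and by -1.01 and -1.31 in WT. Over all 22746 probe sets the same medians were 0.01 and 0.01 in stn7 and -0.01 and -0.05 in WT. The 60 min medians equal falls of 2.15-fold in stn7 and 2.49-fold in WT. All 3 arrays at 60 min lay below all 3 at 0 min for 133 of 133 members in both genotypes, against a background of 13.5% of all probe sets in stn7 and 24.3% in WT. At 30 min this held for 124 members in stn7 (background 10.6%) and 128 in WT (background 18.7%). By the limma fit, 115 members were called lower at 30 min in stn7 (3.78% of all probe sets) and 132 in WT (13.6%). The rule used these contrasts, so nothing is read from the difference.

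Members were brighter than most probe sets: 106 of 133 had a mean signal above the median of all probe sets, and the median level was 7.55 for members and 6.24 overall. Of the 62 genes, 21.0%, 16.1%, 22.6%, 17.7% and 22.6% lay on chromosomes 1, 2, 3, 4 and 5, against 25.7%, 16.3%, 20.5%, 14.6% and 22.4% of all named genes. In these 62 genes were 6 pairs that are next to each other or have 1 gene between them (RefSeq, assembly TAIR10.1). They were AT1G21000 with AT1G21050, AT1G75460 with AT1G75490, the 3 pairs formed by AT4G15660, AT4G15680, AT4G15690 and AT4G15700, and AT5G57780 (P1R1) with AT5G57785. Promoter sequences of the members were not analysed here.

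**Figure D2:**
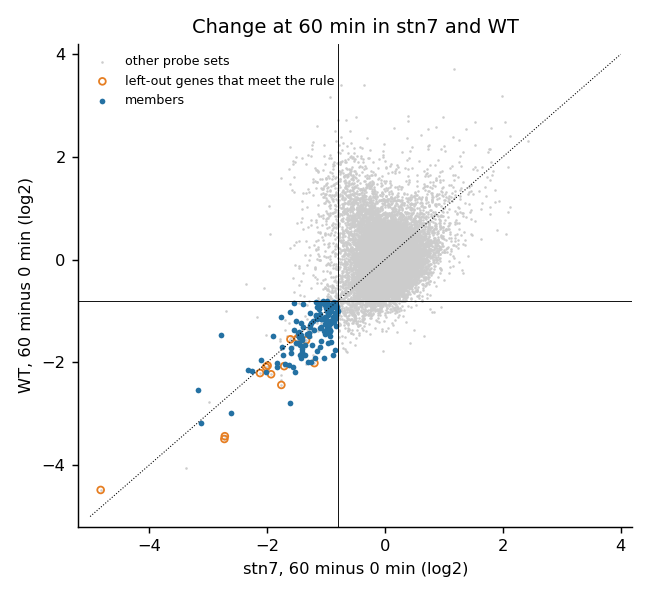
Change at 60 min in stn7 (horizontal axis) against WT (vertical axis), in log2 units, with members in blue, left-out genes that meet the rule as orange rings and other probe sets in grey; solid lines mark -0.8 and the dotted line equal change. The members fill the corner where both changes are at or below -0.8. With all 18 arrays in use, 95 of the 133 changed more in WT than in stn7.

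The fall at 60 min was larger in stn7 for 38 members and larger in WT for 95, and at 30 min it was larger in stn7 for 56 and in WT for 77. These counts carry no test, and the same share over all probe sets is not given here. They also depend on the WT arrays at 0 min. Without the 2 outlying ones, the WT median over the members was -1.12 at 60 min and -0.81 at 30 min. The stn7 medians were -1.11 and -0.90. The median share of the 60 min fall that had been reached at 30 min was 75.2% in stn7 and 74.5% in WT. For 27 members in stn7 and 10 in WT the signal was lower at 30 min than at 60 min, and 8 did so in both genotypes. These 8 were AT3G26510, AT4G10910, AT2G34620, AT3G23880, AT1G48330, AT2G25200, 267238_at and 250007_at.

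Closest to the threshold inside the rule were 249477_s_at and 250657_at, whose smaller 60 min changes were -0.80 in both cases. 249477_s_at had log2 signals of 6.70, 6.80 and 6.45 at 0 min, 5.93, 5.05 and 5.56 at 30 min, and 5.67, 5.99 and 5.15 at 60 min in stn7. 249477_s_at signals in WT were 7.20, 6.93 and 7.0 at 0 min, 6.56, 6.37 and 6.07 at 30 min, and 5.84, 6.28 and 6.62 at 60 min. In both genotypes every 60 min array lay below every 0 min array. 250657_at had log2 signals of 7.51, 7.85 and 7.79 at 0 min, 7.04, 6.89 and 6.87 at 30 min, and 7.18, 7.11 and 6.45 at 60 min in stn7. 250657_at signals in WT were 8.04, 7.64 and 7.85 at 0 min, 6.97, 7.27 and 7.07 at 30 min, and 6.78, 6.85 and 6.92 at 60 min. The smaller change of 250657_at was the one in stn7. Just outside the rule were AT1G11210 and AT3G47160, with smaller 60 min changes of -0.80 and -0.79. AT1G11210 had log2 signals of 7.41, 7.38 and 7.32 at 0 min, 6.87, 7.28 and 7.17 at 30 min, and 6.84, 6.55 and 6.29 at 60 min in stn7. AT1G11210 signals in WT were 7.90, 7.56 and 7.61 at 0 min, 7.41, 7.02 and 6.67 at 30 min, and 6.83, 6.59 and 7.25 at 60 min. The smaller change of AT1G11210 was the one in WT, and its WT arrays at 60 min ran from 6.59 to 7.25. AT3G47160 had log2 signals of 9.63, 9.54 and 9.59 at 0 min, 8.81, 9.10 and 9.21 at 30 min, and 8.84, 8.86 and 8.68 at 60 min in stn7. AT3G47160 signals in WT were 10, 9.75 and 9.89 at 0 min, 9.63, 9.28 and 9.26 at 30 min, and 9.07, 9.06 and 9.09 at 60 min. All 3 of its arrays at 60 min were below all 3 at 0 min in both genotypes.

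The members hold 5 CC-type glutaredoxin genes, which include the steepest fall among the named members. The 21 genes of this family were listed after values had been seen, 17 have a probe set of their own, and 5 of those are members. AT3G62950 had log2 signals of 7.63, 7.72 and 7.61 at 0 min, 5.31, 5.0 and 5.27 at 30 min, and 4.25, 4.83 and 4.38 at 60 min in stn7. AT3G62950 signals in WT were 7.97, 7.68 and 7.97 at 0 min, 6.26, 6.64 and 6.33 at 30 min, and 5.19, 5.20 and 5.61 at 60 min. The 3 groups of each genotype were ordered without overlap from 0 to 30 to 60 min. The 60 min change was -3.16 ± 0.15 in stn7 and -2.54 ± 0.15 in WT (log2, ± SE from the limma fit, n = 3 arrays per group), which is a fall of 8.96-fold in stn7 and of 5.82-fold in WT. The other 4 form a cluster on chromosome 4, in which AT4G15700, AT4G15690 and AT4G15680 lie next to each other.

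AT4G15700 had log2 signals of 5.50, 5.98 and 6.03 at 0 min, 5.02, 5.01 and 4.96 at 30 min, and 4.61, 4.10 and 3.90 at 60 min in stn7. AT4G15700 signals in WT were 6.46, 6.0 and 6.38 at 0 min, 4.95, 4.83 and 4.41 at 30 min, and 4.04, 3.92 and 4.74 at 60 min. Its 3 stn7 arrays at 30 min were above all 3 WT arrays, and its 60 min changes were -1.63 ± 0.22 in stn7 and -2.05 ± 0.22 in WT. Its signals at 60 min were close to those of EXPA7 and EXPA18 (means of 4.12 and 3.96), near the floor, where changes can be understated. AT4G15690 had log2 signals of 7.86, 8.15 and 8.26 at 0 min, 7.69, 7.32 and 7.36 at 30 min, and 6.88, 6.85 and 6.49 at 60 min in stn7. AT4G15690 signals in WT were 8.90, 8.31 and 8.77 at 0 min, 7.52, 7.29 and 6.95 at 30 min, and 6.83, 6.42 and 7.16 at 60 min. At 0 min every stn7 array was below every WT array, and at 30 and 60 min they overlapped. The 60 min changes of AT4G15690 were -1.35 ± 0.19 in stn7 and -1.86 ± 0.19 in WT. AT4G15680 had log2 signals of 6.99, 6.91 and 7.26 at 0 min, 6.99, 6.57 and 6.75 at 30 min, and 6.41, 5.84 and 6.17 at 60 min in stn7. AT4G15680 signals in WT were 7.77, 7.07 and 7.98 at 0 min, 6.68, 6.68 and 6.43 at 30 min, and 5.80, 6.01 and 6.22 at 60 min. In stn7 the 30 min arrays overlapped those at 0 min, and in WT they did not. AT4G15660 had log2 signals of 7.93, 8.15 and 8.41 at 0 min, 8.09, 7.73 and 7.54 at 30 min, and 7.71, 7.29 and 6.68 at 60 min in stn7. AT4G15660 signals in WT were 8.87, 8.62 and 8.89 at 0 min, 7.99, 7.67 and 7.59 at 30 min, and 7.48, 7.44 and 7.82 at 60 min. Here too the stn7 arrays at 30 min overlapped those at 0 min, and those of WT did not. The 60 min changes were -0.91 ± 0.20 in stn7 and -1.60 ± 0.20 in WT for AT4G15680, and -0.94 ± 0.21 in stn7 and -1.21 ± 0.21 in WT for AT4G15660. These tandem genes are similar in sequence, and probe sets of near-identical copies can pick up each other's transcripts, so their values may not be independent. None of these 4 passed the tests between genotypes (adjusted p of 0.0994 or more).

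The other 12 genes of the family had 60 min changes of -0.66 to 0.58 in stn7 and of -0.96 to 1.02 in WT. AT2G47880 changed by -0.66 in stn7 and -0.92 in WT at 60 min, and AT3G62930 by -0.57 in stn7 and -0.96 in WT. GRX480, an interactor of TGA transcription factors that responds to salicylate, had 60 min changes of 0.39 in stn7 and 1.02 in WT. These family values carry no test, since the family was looked at because its members fell.

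**Figure D3:**
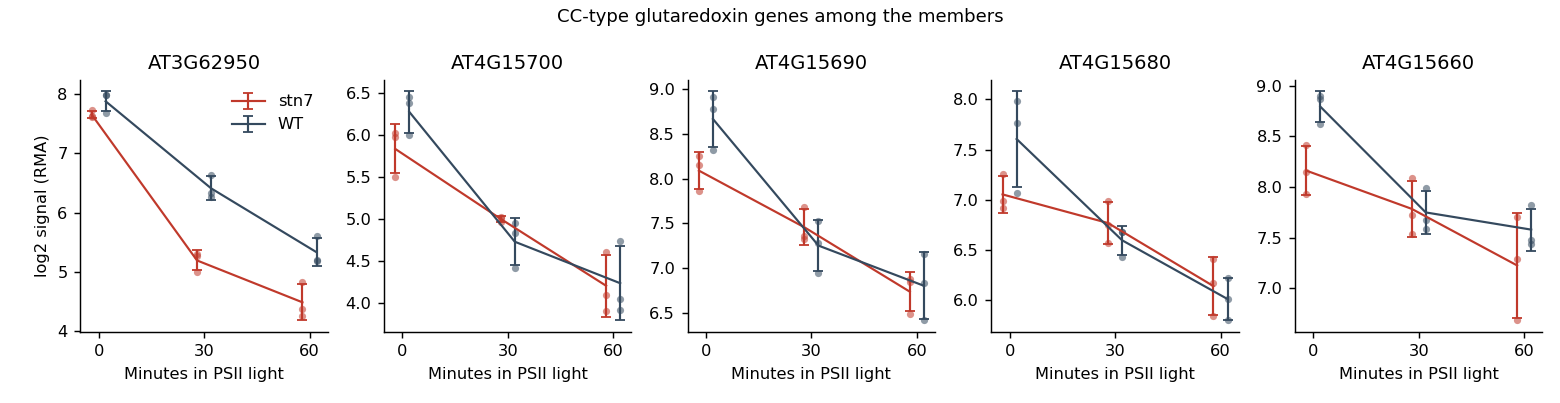
Log2 signal (vertical axis, scaled to each gene) of the 5 glutaredoxin members against minutes in PSII light, with 1 point per array, stn7 in red and WT in dark blue; lines join means and bars are SD (n = 3). AT3G62950 stands lower in stn7 at 30 and 60 min, while the genes of the chromosome 4 cluster overlap at 60 min.

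Other members belong to families with known roles. Of 28 members grouped by what their families are known to do, the glutaredoxins included, 7 take part in transcription: the bHLH factors UPB1 and AT4G01460, the AP2/ERF factor AT1G75490, the Dof factor AT1G47655, the PLATZ proteins AT1G21000 and AT1G32700, and AT5G63480, a Mediator subunit. Their 60 min changes ran from -1.39 to -0.82 in stn7 and from -1.45 to -0.82 in WT. UPB1 is known from roots, where it acts on peroxidase genes and on reactive oxygen balance. UPB1 had log2 signals of 6.49, 6.19 and 6.32 at 0 min, 5.47, 5.96 and 5.75 at 30 min, and 5.14, 4.90 and 4.79 at 60 min in stn7. UPB1 signals in WT were 7.09, 6.12 and 7.39 at 0 min, 6.79, 5.32 and 5.38 at 30 min, and 5.33, 5.39 and 5.93 at 60 min. In stn7 its groups were ordered without overlap, and in WT the 0 and 30 min arrays overlapped, with replicate 2 at 0 min at 6.12. The 60 min change of UPB1 was -1.39 ± 0.33 in stn7 and -1.31 ± 0.33 in WT.

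Protein turnover had 6 members. They were ATG8E, a ubiquitin-like protein of autophagosome membranes, the aspartyl protease-like AT5G19120, the LON-domain protein AT1G75460, the RING proteins AT4G26400 and AT4G17245, and the F-box protein AT3G23880. Their 60 min changes lay between -1.55 and -0.83 in stn7 and between -1.73 and -0.85 in WT. ATG8E had log2 signals of 8.44, 9.26 and 9.31 at 0 min, 7.60, 7.71 and 7.18 at 30 min, and 7.59, 7.68 and 7.54 at 60 min in stn7. ATG8E signals in WT were 9.66, 9.24 and 9.67 at 0 min, 8.79, 7.75 and 7.93 at 30 min, and 7.72, 7.62 and 8.02 at 60 min. All 3 stn7 arrays were below all 3 WT arrays at 30 min, and the genotypes overlapped at 0 and 60 min. The 60 min change of ATG8E was -1.40 ± 0.24 in stn7 and -1.73 ± 0.24 in WT.

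GH3.3 and GH3.17, which join auxin or related acids to amino acids, are the auxin-related members. GH3.17 had log2 signals of 7.45, 7.22 and 7.23 at 0 min, 6.57, 6.37 and 6.52 at 30 min, and 6.46, 6.30 and 6.09 at 60 min in stn7. GH3.17 signals in WT were 7.42, 6.88 and 7.18 at 0 min, 6.76, 6.53 and 6.87 at 30 min, and 6.27, 6.34 and 6.37 at 60 min. The stn7 and WT arrays overlapped at each of the 3 times. GH3.3 had log2 signals of 4.97, 5.29 and 5.74 at 0 min, 4.64, 4.55 and 4.80 at 30 min, and 4.50, 4.31 and 4.30 at 60 min in stn7. GH3.3 signals in WT were 5.42, 5.10 and 5.54 at 0 min, 4.85, 4.84 and 4.92 at 30 min, and 4.56, 4.44 and 4.50 at 60 min. Every array at 30 min lay above every array at 60 min in both genotypes. The 60 min changes were -1.01 ± 0.13 in stn7 and -0.83 ± 0.13 in WT for GH3.17, and -0.97 ± 0.15 in stn7 and -0.85 ± 0.15 in WT for GH3.3.

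Cell wall enzymes were represented by the pectate lyase-like AT5G48900, the rhamnogalacturonate lyase AT2G22620 and the glycosyl hydrolase AT4G18340, with 60 min changes of -0.97 to -0.91 in stn7 and -1.38 to -0.99 in WT. Members of organelles and metabolism were CYTC6A, a cytochrome of the thylakoid lumen, AT5G64380 of the fructose bisphosphatase family, AT2G34620 of the mTERF family, the methyltransferase AT3G61210 and the dehydrogenase AT2G29290. Their 60 min changes were -1.46 to -0.95 in stn7 and -1.50 to -1.17 in WT. CYTC6A had log2 signals of 8.37, 8.46 and 8.57 at 0 min, 8.03, 7.50 and 7.95 at 30 min, and 7.18, 7.67 and 7.56 at 60 min in stn7. CYTC6A signals in WT were 8.77, 8.36 and 8.70 at 0 min, 7.74, 7.87 and 7.27 at 30 min, and 7.45, 7.31 and 7.54 at 60 min. Genotypes overlapped at every time, and the 60 min change was -0.99 ± 0.17 in stn7 and -1.17 ± 0.17 in WT. Fes1B had log2 signals of 7.45, 7.47 and 7.74 at 0 min, 7.12, 7.27 and 7.01 at 30 min, and 6.64, 6.64 and 6.45 at 60 min in stn7. Fes1B signals in WT were 7.73, 7.78 and 7.79 at 0 min, 7.08, 7.29 and 7.06 at 30 min, and 6.67, 6.65 and 6.98 at 60 min. Fes1B belongs to the family of exchange factors for Hsp70 chaperones. It was ordered without overlap through 0, 30 and 60 min in both genotypes. The 60 min change of Fes1B was -0.98 ± 0.11 in stn7 and -1.0 ± 0.11 in WT.

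Among the steepest named falls were also genes of unknown or uncertain role. P1R1, which fell less, is given with them because it has a gene symbol. AT1G21050 had log2 signals of 8.48, 9.01 and 9.09 at 0 min, 7.66, 7.55 and 7.79 at 30 min, and 7.39, 7.15 and 6.94 at 60 min in stn7. AT1G21050 signals in WT were 9.08, 9.08 and 9.35 at 0 min, 8.09, 7.76 and 7.46 at 30 min, and 7.09, 7.29 and 7.05 at 60 min. AT1G21050, of the DUF617 family, was ordered without overlap in time in both genotypes and overlapped between genotypes at each time. P1R3 had log2 signals of 5.92, 6.42 and 6.58 at 0 min, 5.31, 5.0 and 4.93 at 30 min, and 4.83, 4.79 and 4.14 at 60 min in stn7. P1R3 signals in WT were 7.10, 6.52 and 7.23 at 0 min, 5.72, 5.43 and 5.17 at 30 min, and 4.92, 5.0 and 5.37 at 60 min. At 60 min every stn7 array of P1R3 lay below every WT array. P1R1 had log2 signals of 8.96, 9.33 and 9.28 at 0 min, 8.11, 8.19 and 8.04 at 30 min, and 8.10, 8.54 and 7.89 at 60 min in stn7. P1R1 signals in WT were 9.60, 9.36 and 9.49 at 0 min, 8.53, 8.43 and 7.96 at 30 min, and 8.28, 8.13 and 8.28 at 60 min. For P1R1 the stn7 arrays lay below the WT arrays at 0 min and overlapped them afterwards. AT3G15630 had log2 signals of 9.80, 10.28 and 10.21 at 0 min, 8.61, 8.52 and 8.75 at 30 min, and 8.93, 8.88 and 8.42 at 60 min in stn7. AT3G15630 signals in WT were 10.61, 10.27 and 10.63 at 0 min, 9.43, 8.78 and 8.77 at 30 min, and 8.92, 8.76 and 8.87 at 60 min. For AT3G15630 the 30 min arrays of stn7 lay below those of WT. The 60 min changes were -1.70 ± 0.17 in stn7 and -2.03 ± 0.17 in WT for AT1G21050, -1.72 ± 0.22 in stn7 and -1.85 ± 0.22 in WT for P1R3, -1.02 ± 0.16 in stn7 and -1.26 ± 0.16 in WT for P1R1, and -1.36 ± 0.18 in stn7 and -1.65 ± 0.18 in WT for AT3G15630.

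AT5G50335 had log2 signals of 9.78, 9.50 and 9.96 at 0 min, 8.97, 9.01 and 9.04 at 30 min, and 8.54, 8.35 and 7.95 at 60 min in stn7. AT5G50335 signals in WT were 10.43, 10.26 and 10.51 at 0 min, 9.49, 8.86 and 9.44 at 30 min, and 8.66, 8.82 and 8.83 at 60 min. The stn7 arrays of AT5G50335 were below those of WT at 0 and 60 min. AT4G28240 had log2 signals of 11.09, 10.92 and 10.78 at 0 min, 9.25, 9.22 and 9.64 at 30 min, and 9.40, 9.74 and 9.22 at 60 min in stn7. AT4G28240 signals in WT were 11.38, 11.10 and 11.42 at 0 min, 10.18, 9.81 and 9.75 at 30 min, and 9.74, 9.73 and 9.60 at 60 min. AT4G28240, of a wound-responsive family, was lower in stn7 without overlap at 0 and 30 min. AT5G59080 had log2 signals of 8.54, 8.80 and 8.98 at 0 min, 7.34, 7.53 and 7.51 at 30 min, and 7.60, 7.34 and 7.15 at 60 min in stn7. AT5G59080 signals in WT were 9.30, 9.13 and 9.21 at 0 min, 7.91, 7.98 and 7.99 at 30 min, and 7.37, 7.25 and 7.65 at 60 min. The same held for AT5G59080, whose role is not known. The 60 min changes were -1.47 ± 0.16 in stn7 and -1.63 ± 0.16 in WT for AT5G50335, -1.48 ± 0.15 in stn7 and -1.61 ± 0.15 in WT for AT4G28240, and -1.41 ± 0.13 in stn7 and -1.79 ± 0.13 in WT for AT5G59080. Members without 1 gene had 60 min changes of -3.12 to -0.80 in stn7 and -3.18 to -0.80 in WT, beside -3.16 to -0.82 in stn7 and -2.54 to -0.81 in WT for the members with 1 gene.

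The rule set no condition on the level of stn7 against WT at 30 min, on the mean over the 3 times, or on how far the 30 min value of each genotype lay from the midpoint of its 0 and 60 min values. These 3 contrasts are orthogonal to the changes that chose the members, provided the groups have equal spread, and were tested with limma over all 22746 probe sets. The spread was not equal. On the within-group axis the SD was 19.95 at 0 min and 4.62 at 60 min in WT, and 20.43 and 15.14 in stn7. The selection may therefore have moved these contrasts for the members, and by how much was not tested. Averaged over the 3 times, 43 of the 133 members were lower in stn7 and 2 were higher (259244_at and 265342_at, 1.5% of members against 6.32%). That is 33.8% of members called, against 10.1% of all probe sets, and 32.3% called lower, against 3.76%. The median difference was -0.18 over the members and -0.01 over all probe sets, and 111 of 133 members were negative against 52.2% of all. Among the 43, the median was -0.43, the range -0.90 to -0.21, and 39 had a lower stn7 mean at each of the 3 times. The stn7 minus WT median of all members was -0.27 at 0 min and -0.12 at 60 min, as a description.

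**Figure D4:**
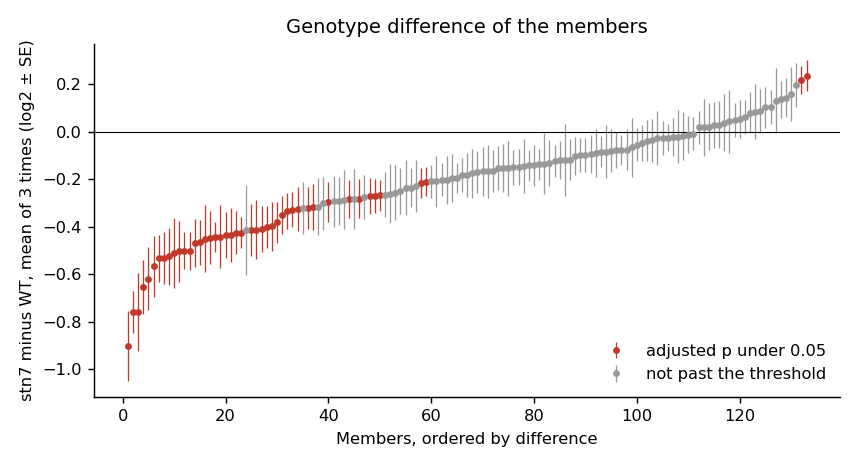
Difference of stn7 minus WT over the 3 times for the 133 members, ordered along the horizontal axis, in log2 units with SE bars (n = 3 arrays per group); red marks an adjusted p under 0.05 and grey the rest. Of the members, 111 lie below 0, and 43 of those called are below 0 and 2 above it.

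The count depended on the WT arrays at 0 min. Without the 2 WT arrays farthest along the within-group axis at 0 min, which leaves 1 array in that group, 15 members were called, all lower, against 5.15% of all probe sets. Averaged over 30 and 60 min alone, an alternative chosen after the data had been seen, 27 members were called, all lower, against 13.3%. With the scores on that axis as a covariate, 52 members were called, 50 of them lower, against 13.9% of all probe sets. The members were also brighter than most probe sets. With a filter at the median of signal, 39 of the 106 members kept were called, 37 of them lower, against 15.5% of the probe sets kept.

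AT3G62950 had the smallest p of the members over the 3 times, with a difference of -0.76 ± 0.09 (SE, n = 3 arrays per group, limma adjusted p = 9.51e-05). Its stn7 arrays were below the WT arrays at 30 and 60 min and overlapped them at 0 min. AT2G34620, a protein of the mTERF family of organelle gene expression factors, differed by -0.44 ± 0.06 (SE, n = 3 arrays per group, limma adjusted p = 0.000401). AT2G34620 had log2 signals of 8.94, 9.13 and 8.97 at 0 min, 7.58, 7.21 and 7.47 at 30 min, and 7.70, 7.95 and 7.59 at 60 min in stn7. AT2G34620 signals in WT were 9.41, 9.40 and 9.35 at 0 min, 8.10, 8.03 and 8.02 at 30 min, and 8.10, 7.99 and 8.12 at 60 min. In this gene stn7 was lower without overlap at all 3 times, and in stn7 every 60 min array was above every 30 min array. Of the other named genes called lower, AT5G50335 differed by -0.47 ± 0.09 (limma adjusted p = 0.00475), AT5G59080 by -0.33 ± 0.07 (0.00924) and AT4G28240 by -0.38 ± 0.09 (0.00996). P1R3 differed by -0.50 ± 0.13 (limma adjusted p = 0.0182) and AT1G48330 by -0.43 ± 0.09 (0.00674). ATG8E was at the edge of the threshold, at -0.45 ± 0.14 (limma adjusted p = 0.0496). It no longer passed when any 1 of 13 arrays was left out (adjusted p of up to 0.103), without both outlying WT arrays (adjusted p = 0.229), with the replicate number as a block (0.071) or with a trended robust variance (0.0715). Without both of those WT arrays P1R3 (adjusted p = 0.143), AT5G59080 (0.0612), AT4G28240 (0.0795) and AT1G48330 (0.0645) also missed the threshold, with the same sign. AT3G15630, UPB1 and P1R1 did not pass, with differences of -0.29 ± 0.10, -0.41 ± 0.19 and -0.18 ± 0.09 (limma adjusted p = 0.0731, 0.167 and 0.214). GH3.17, GH3.3, CYTC6A and Fes1B did not pass either, with differences of -0.05 ± 0.08, -0.12 ± 0.09, 0.03 ± 0.10 and -0.14 ± 0.06.

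At 30 min 10 members were called, all lower in stn7 (7.52% of members), against 1.78% of all probe sets and 0.73% called lower. Of the 10, 9 were also called over the 3 times, and 3 have a named gene. AT3G62950 differed by -1.21 ± 0.15 (SE, n = 3 arrays per group, limma adjusted p = 0.000912) and AT2G34620 by -0.63 ± 0.11 (SE, n = 3 arrays per group, limma adjusted p = 0.00639). AT1G48330, of unknown role, differed by -0.78 ± 0.16 (SE, n = 3 arrays per group, limma adjusted p = 0.0183). AT1G48330 had log2 signals of 7.38, 7.77 and 7.51 at 0 min, 6.41, 5.88 and 5.89 at 30 min, and 6.61, 6.87 and 6.63 at 60 min in stn7. AT1G48330 signals in WT were 8.03, 7.64 and 8.02 at 0 min, 7.03, 6.92 and 6.57 at 30 min, and 6.87, 6.93 and 6.76 at 60 min. At 30 min its stn7 arrays were below all WT arrays, and at 60 min the genotypes overlapped. Its call at 30 min was lost without WT replicate 1 or 2, or stn7 replicate 2 or 3, at that time (adjusted p between 0.0674 and 0.109), and with only the 30 min groups in the fit (0.0567).

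The probe sets without a gene name with the smallest p at 30 min were 264779_at, 258239_at, 256300_at and 251084_at. 264779_at had log2 signals of 9.60, 9.53 and 9.55 at 0 min, 8.46, 8.28 and 8.61 at 30 min, and 8.46, 8.54 and 8.34 at 60 min in stn7. 264779_at signals in WT were 9.91, 9.67 and 9.65 at 0 min, 9.41, 8.98 and 9.19 at 30 min, and 8.86, 8.68 and 8.83 at 60 min. Its genotypes did not overlap at any time, with a 30 min difference of -0.75 ± 0.11 (SE, n = 3 arrays per group, limma adjusted p = 0.00342). 258239_at had log2 signals of 11.22, 11.23 and 10.91 at 0 min, 9.87, 9.48 and 9.48 at 30 min, and 9.32, 9.86 and 9.58 at 60 min in stn7. 258239_at signals in WT were 11.14, 11.19 and 11.02 at 0 min, 10.37, 10.48 and 10.45 at 30 min, and 10.14, 10.25 and 10.44 at 60 min. The genotypes overlapped at 0 min and not afterwards, and the 30 min difference was -0.82 ± 0.14 (SE, n = 3 arrays per group, limma adjusted p = 0.00639). 256300_at had log2 signals of 9.35, 9.04 and 8.80 at 0 min, 6.52, 7.28 and 7.49 at 30 min, and 6.29, 6.12 and 6.41 at 60 min in stn7. 256300_at signals in WT were 9.19, 9.04 and 8.87 at 0 min, 9.20, 8.01 and 8.38 at 30 min, and 7.62, 7.36 and 7.76 at 60 min. The WT arrays at 30 min overlapped those at 0 min, with replicate 1 as high as before the shift, and the stn7 arrays did not. Its 30 min difference was -1.43 ± 0.25 (SE, n = 3 arrays per group, limma adjusted p = 0.00821), with an adjusted p of 0.0543 when only the 30 min groups were fitted. 251084_at had log2 signals of 8.40, 8.23 and 8.32 at 0 min, 7.38, 7.58 and 7.86 at 30 min, and 7.58, 7.39 and 7.0 at 60 min in stn7. 251084_at signals in WT were 8.89, 8.65 and 8.89 at 0 min, 8.33, 8.15 and 8.28 at 30 min, and 7.69, 7.65 and 7.73 at 60 min. The genotypes were separate at all 3 times, and the 30 min difference was -0.65 ± 0.14 (SE, n = 3 arrays per group, limma adjusted p = 0.0222), a call lost without any 1 of 4 arrays (adjusted p between 0.0579 and 0.0751) and with only the 30 min groups in the fit (0.0501). The count of members called at 30 min was 5 without WT replicate 1 at 30 min, against 0.725% of all probe sets. It was 6 without stn7 replicate 2 at 30 min, against 0.668%. All of these were lower in stn7.

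**Figure D5:**
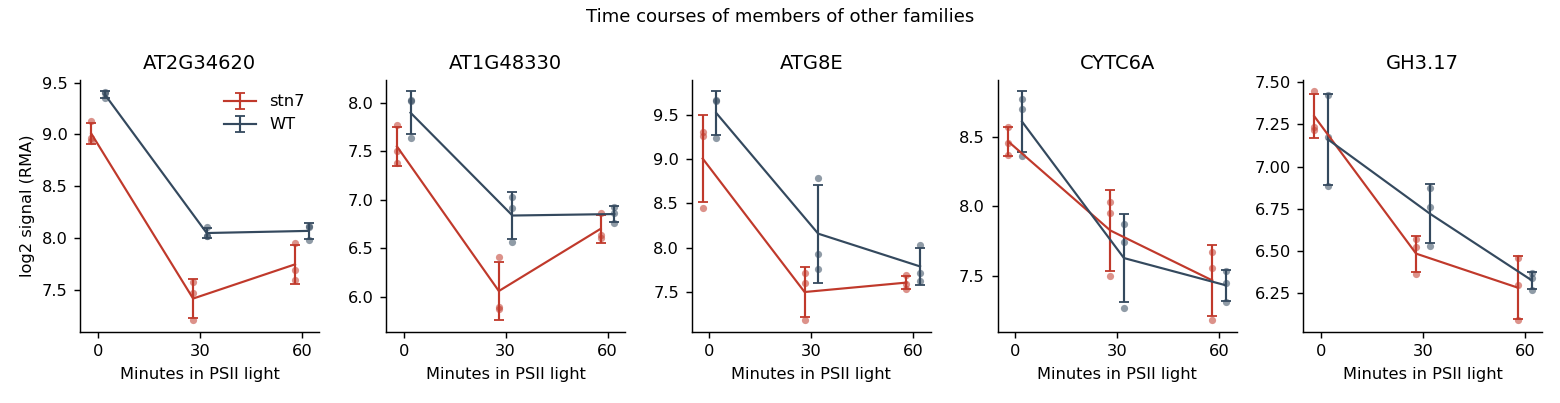
Log2 signal (vertical axis, scaled to each gene) of AT2G34620, AT1G48330, ATG8E, CYTC6A and GH3.17 against minutes in PSII light, with 1 point per array, stn7 in red and WT in dark blue; lines join means and bars are SD (n = 3). AT2G34620 and AT1G48330 are lowest at 30 min in stn7, and CYTC6A and GH3.17 overlap between genotypes at every time.

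Between the genotypes, the position of the 30 min value between 0 and 60 min was called different for 0 members (limma, smallest adjusted p = 0.411). It was called for 2 of all probe sets (0.00879%). An unadjusted limma p under 0.05 was reached by 16 of the 133 members and by 1530 of all 22746 probe sets. The median of this difference was 0.01 over the members, with member values from -0.79 to 0.60 and SE of up to 0.40, so a difference of timing within that error was not detectable with 3 arrays per group.

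Other genes of the pathways that the members belong to were taken from lists. The low-energy list, with genes that rise under low sugar or energy, has 36 genes, of which 11 had a probe set of their own, 1 of them a member (ATG8E) and 3 left out by the rule. Of the other 7, 5 fell and 1 rose in stn7 at 60 min and 3 fell and 1 rose in WT, against 7.72% of all probe sets called lower and 8.85% called higher in stn7, and 16.5% lower and 16.2% higher in WT. Those that fell in both genotypes were AKINBETA1, a subunit of the SnRK1 energy-sensing kinase, with changes of -1.69 ± 0.18 in stn7 (SE, limma adjusted p = 4.26e-06) and -1.38 ± 0.18 in WT (adjusted p = 2.12e-05), SIS, a salt-induced gene, with -1.76 ± 0.17 in stn7 and -2.35 ± 0.17 in WT, and MCCA, of leucine breakdown, with -0.94 ± 0.19 in stn7 and -0.78 ± 0.19 in WT. At 30 min SIS changed by -0.41 in stn7 and -0.99 in WT, and AKINBETA1 by -0.16 in stn7 and -0.30 in WT, less than a fraction of 0.5 of their 60 min changes. The rule put such later falls outside the members.

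Of the 49 genes of the shade and auxin list 7 had a probe set, 1 of them a member (GH3.3) and 1 left out (IAA29). Of the other 5, 3 fell in stn7 and 4 in WT at 60 min, and none rose. Of all probe sets, 7.72% were called lower in stn7 and 16.5% in WT. HAT2, a shade-induced homeobox factor, changed by -2.02 ± 0.11 in stn7 (SE, limma adjusted p = 4.85e-09) and by -1.47 ± 0.11 in WT (adjusted p = 2.23e-07). At 30 min its changes were -0.32 in stn7 and -0.18 in WT. WES1, an auxin-conjugating GH3 enzyme, changed by -1.44 ± 0.23 in stn7 and -1.40 ± 0.23 in WT at 60 min, and SAUR10, of the small auxin-up RNA family, by -0.60 ± 0.14 in stn7 and -1.36 ± 0.14 in WT.

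The other pathway lists held no member. Beside their counts, 7.72% of all probe sets were called lower and 8.85% higher in stn7 at 60 min. In WT these shares were 16.5% and 16.2%. Of 7 measured growth and cell wall genes, 2 fell and 5 rose in stn7 and 2 fell and 1 rose in WT at 60 min, with EXPA8, an expansin, at -1.14 ± 0.11 in stn7 and -1.38 ± 0.11 in WT, and XTH18, an endotransglucosylase, at 0.94 ± 0.17 in stn7 and 1.52 ± 0.17 in WT. Of 4 clock and light genes, 1 fell and 2 rose in stn7 and 1 fell and 1 rose in WT. Of 2 cytokinin response genes, 0 were called in stn7 and 1 fell in WT (ARR16, -0.52 ± 0.17, adjusted p = 0.0272).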

How the data were processed

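The values are the log2 signals deposited by the authors in 1 table of 18 one-colour Affymetrix arrays, made with GCOS, Affymetrix Expression Console 1.1 and RMA per the submitters' processing notes. Which settings and probe set definitions were used is not given in the sources used here. RMA equalises array distributions, so a change common to most transcripts would not be seen. Signals stayed log2 as deposited, with no filter and no rescaling, and the number of arrays limits the precision.

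Of 22810 probe sets, 64 controls were removed. limma 3.58.1 (R 4.3.3) fitted the 6 group means to the 18 arrays together, with two-sided tests adjusted by Benjamini-Hochberg over 22746 probe sets (threshold 0.05) and a step tested on simulated data. Changes chosen by the rule are described without a test. Replicates are separate plant pools per the labels.

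The members, lists and rule for named genes were chosen with earlier results of these data known. Values in every array are given for the 10 named members with the largest 60 min falls, the 6 members with the smallest p in each test that made calls, members in a list or with a symbol, and the 2 probe sets on each side of the threshold. AT4G15680, AT4G15660, the role groups and the glutaredoxin family were chosen after values were seen. Of the marker lists, none of the epidermis, flower, seed or dividing cell genes had a probe set of its own. A motif search of promoters was planned and is not analysed here. Alternatives changed normalization, centring, filters, variance model, array weights, covariates, the samples fitted and single arrays.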

Additional observations from a re-analysis of the deposited data

How the results depend on the processing

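The count of members called at 30 min was 10 in the main fit, against 1.78% of all probe sets. It was 19 with array weights (against 3.39%) and 18 with the scores on the within-group axis as a covariate (3.64%). With a filter at the median of signal it was 10, against 2.79% of the probe sets kept. With only the groups compared in the fit it was 5, and with a 2-fold minimum it was 2. For these settings the share of all probe sets is not given here. When single arrays were left out it ran from 5 (0.725%, without WT replicate 1 at 30 min) to 12 (1.9%, without stn7 replicate 1 at 0 min). The count over the 3 times (45) was 15 without both outlying WT arrays at 0 min, 27 over 30 and 60 min alone (chosen after seeing the data) and 0 with a 2-fold minimum, and ran from 31 to 53 without single arrays. The 0 calls on the 30 min position stayed at 0 in each alternative run. With the replicate number as a block the 3 counts were 9, 40 and 0, against 1.17%, 8.92% and 0% of all probe sets. Arrays with the same replicate number in different groups form 45 pairs. The correlation of their deviations from group means was over 0.1 in 13 of these (median -0.07, range -0.41 to 0.33). Whether the numbers pair the arrays cannot be told from these correlations. The rule gave 72 probe sets with a 60 min threshold of -1 and 121 to 163 without single arrays. Without both outlying WT arrays the WT medians over the members were -1.12 at 60 min and -0.81 at 30 min, beside -1.11 and -0.90 in stn7. Without single arrays the medians ran from -1.20 to -1.06 at 60 min and -1.0 to -0.85 at 30 min in stn7, and from -1.41 to -1.23 and -1.11 to -0.93 in WT. The shade and auxin list had 3 genes called lower in stn7 and 3 in WT with a filter at the median of signal, and 3 in stn7 with a 2-fold minimum. Without single arrays the low-energy counts were 9 in stn7 and 7 in WT throughout. The shade and auxin counts were 5 in stn7 and 5 to 6 in WT. All these list counts include genes that met the rule (ATG8E and 3 left-out genes, and GH3.3 and IAA29), so their stability is partly fixed by the selection. Outside those genes, the low-energy list had 5 lower in stn7 and 3 in WT, and the shade and auxin list 3 in stn7 and 4 in WT. Of 72 results on named members in the 3 genotype tests, 19 were called, and none of those changed sign in the alternatives run. Of these 19, 18 no longer passed in at least 1 alternative, the 2-fold minimum included. Of the results not called, 13 changed sign in at least 1 alternative, without a call there. CYTC6A over the 3 times was 0.03, and -0.02 with median centring, and AT4G15660 at 30 min was 0.04, and -0.03 with median centring. The causes were not tested. Dim members such as GH3.3 lie near the floor, where changes can be understated. The same holds for AT4G15700 at 60 min and for AT3G62950 at 60 min in stn7.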
